A study of Drosophila melanogaster with 24 samples.

Results

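Females of the Low (L) selection lines were compared with females of the Control (C) lines for whole-fly transcript abundance. The comparison used 8 of the 24 arrays of the series, 4 from L females and 4 from C females, chosen by sex and selection group alone. The flies were *Drosophila melanogaster* from a heterogeneous wild-derived base population. L flies had been bred for 25 generations from the individuals least active after a mechanical disturbance (low locomotor reactivity), and C flies from unselected individuals of the same base population. Each group had 2 lines, and each line gave 2 separate pools of virgin females aged 3 to 7 days. No transgene, mutant allele or drug was involved. High (H) lines, bred for high reactivity, and males of all lines were also profiled and are used here only where named. The question was which transcripts differed between L and C females.

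Locomotor reactivity is the activity of a fly after it has been startled. Genes of synaptic transmission, membrane excitability, biogenic amine signalling, vision and muscle are among those known to affect movement in flies. In a whole adult female, a large part of the RNA comes from the ovaries. There, germline nurse cells supply maternal transcripts to the oocyte, and follicle cells make first the vitelline membrane and later the chorion of the egg shell.

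Transcript abundance was read as Signal, the expression value that the MAS5 software gives for each Affymetrix probe set. Differences are given as L minus C on the log2 scale, so that a positive value is higher in L females, with the standard error (SE) of the limma fit. The error of that fit is the spread between samples of the same line. Its p-values therefore measure differences between these particular lines beyond sample spread, and say nothing of the spread between lines selected independently. When lines were instead taken as the replicates (line as a random block), no probe set passed at an adjusted p under 0.05, and 1895 had an unadjusted p under 0.05.

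Of 11439 probe sets tested, 1006 (8.79%) rose in L females and 1136 (9.93%) fell, at a Benjamini-Hochberg adjusted p under 0.05 in limma. Together these were 2142 probe sets, or 18.7%. The 4 L arrays lay all above the 4 C arrays for 1038 probe sets (9.07%) and all below them for 969 (8.47%), or 17.5% together, and 1319 of these were also called by the test. Most differences were small. The median fold difference of the called probe sets was 1.42, and 1379 of them (64.4%) were under 1.5-fold. Another 226 differed at least 2-fold, of which 64 rose and 162 fell. At the level of genes, taking 1 probe set for each of 9470 genes, 873 (9.22%) rose and 902 (9.52%) fell, and the median over all genes was 0.01. Without L line 2, 503 probe sets were called (152 higher, 351 lower), and without C line 1, 756 (268 higher, 488 lower). Of all genes, 2.98% were called lower without L line 2 and 4.2% without C line 1. That share was 10.1% without L line 1 and 7.39% without C line 2. Falls counted below in a list with a line left out stand beside these shares, not beside that of the full fit. With each array centred on its median, 736 rose and 1543 fell, so that the share of calls that were higher in L was 32.3%, compared with 47% of the calls as first given. By the same centring 822 probe sets had all L arrays above and 1198 all below.

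**Figure D1:**
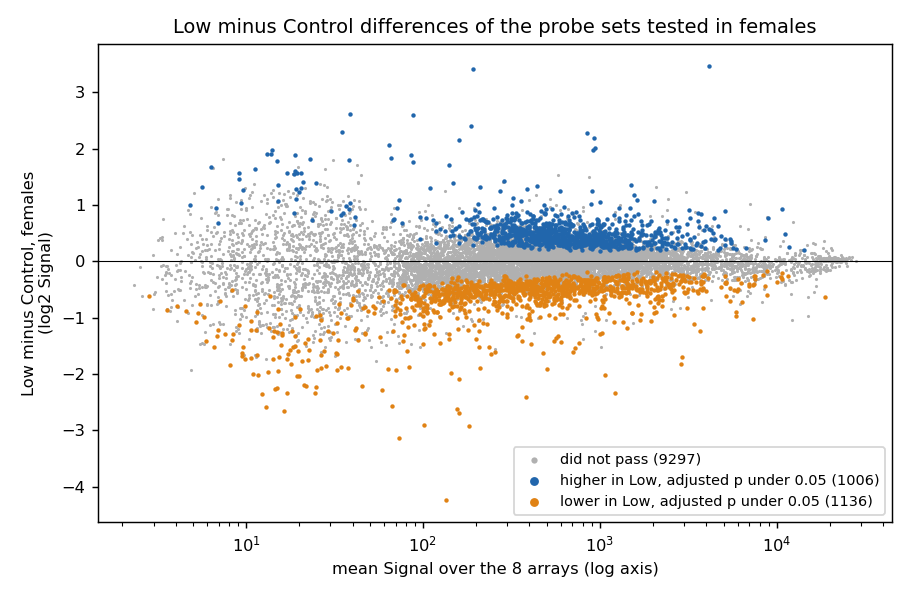
Low minus Control difference (log2 Signal, females) of each of the 11439 probe sets tested against its mean Signal over the 8 arrays (log axis). Blue points are the 1006 probe sets that rose in Low females, orange points the 1136 that fell, and grey points the rest; most called differences are small, and the 162 falls of at least 2-fold outnumber the 64 rises of that size.

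MAS5 scales each array to a common level. That scaling set the mean Signal with the outer 2% trimmed off both tails, which was 497.2 to 498.1. The median log2 Signal of the probe sets tested was not set by it, and was 8.788 to 8.879 in L arrays and 8.742 to 8.808 in C arrays. The correlation of log2 Signal between the 2 samples of a line was 0.9695 to 0.9751. The 6 germline and 3 fat body markers of females had a median Signal of 75 or more over the 8 arrays, and so had the 11 egg shell markers, of which some were under 75 in C arrays. Of the 21 markers of the male accessory gland and testis with a probe set here, 1 had a median Signal of 75 or more in the 8 female arrays. Summed over the 10 accessory gland markers, Signal was 352 to 437 in L females and 275 to 409 in C females. The 11 testis markers summed to 204 to 272 in L females and 238 to 422 in C females.

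The widest differences between the groups were in the egg shell. All 20 egg shell genes with a probe set here averaged more in L females than in C females, and for 9 of them every L array exceeded every C array, where that was so for 9.43% of all genes tested. RNA of whole flies cannot tell more cells of a type from more RNA per cell, here and in all that follows. *Cp18*, a major chorion protein gene, had a Signal of 3326 and 4578 in L line 1 and 3376 and 3354 in L line 2, against 5.8 and 20.7 in C line 1 and 10.2 and 69.3 in C line 2. *Cp16* had 2397 and 4358 in L line 1 and 1632 and 3957 in L line 2, against 8.2 and 5.6 in C line 1 and 15.8 and 453.5 in C line 2. For both chorion genes the lowest L array was above the highest C array, and the C arrays themselves ranged widely. *Cp19* showed the same order, from 2990 to 7322 in L females against 23.1 to 1727 in C females. *Cp36* and *Cp38* did overlap. Their L arrays lay between 8172 and 10053 for *Cp36* and between 8261 and 9796 for *Cp38*, while one C line 2 array reached 11504 and 10898 and both C line 1 arrays stayed at or under 137.5 and 56.2.

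Only 8 of the 20 egg shell genes entered the test, which needed a Signal of 75 or more as the median of all 24 arrays, males included. The highest Signal of any of the 20 in L and C males was 132.4. Among those 8, *Cp15*, another chorion gene, rose by 3.47 ± 0.64 (SE, adjusted p = 0.00324 in limma), with 6907 and 3840 in L line 1 and 6442 and 10998 in L line 2, against 408.6 and 158.9 in C line 1 and 474.3 and 4010 in C line 2. Its adjusted p was 0.0558 without L line 2 and 0.108 without C line 1. The other 7 did not pass. *Cp16*, *Cp18*, *Cp19*, *Cp36* and *Cp38* were not among the 8 and are given by their values alone, since C arrays under 75 set only a bound on a difference.

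Differences were smaller for genes of the vitelline membrane, which is made before the chorion. They were read in a second fit, chosen after the values were seen, of the 12 female arrays with a median Signal of 75 or more over the 8 arrays. *Vm26Aa* averaged 11200 in L females and 6442 in C females (difference 0.79 ± 0.49, adjusted p = 0.267 in the female fit), and *Vm34Ca* 15460 and 9292 (0.70 ± 0.46, adjusted p = 0.287). For both, the 4 L arrays lay above the 4 C arrays although neither passed. *Vm32E* had 561 to 1600 in L females and 131 to 560 in C females (1.53 ± 0.56, adjusted p = 0.0755). *clos*, at 1198 to 1310 in L females and 1062 to 1213 in C females, was nearly level (0.09 ± 0.07, adjusted p = 0.394). H females, which are set against the same C arrays, had *Cp18* at 22.6 and 14.3 in line 1 and 488.5 and 6.5 in line 2, and *Cp38* at 1274 and 67.7 in line 1 and 1659 and 415.5 in line 2. *Vm26Aa* was at 14159 and 2780 in H line 1 and 12491 and 4994.5 in H line 2. *Vm34Ca* was at 18513 and 4393 in H line 1 and 20994 and 9547 in H line 2. For both, 1 array of each H line reached or passed the L range and the other lay below it. *Cp19* reached 3077 in 1 array of H line 2, where the lowest L array had 2990.

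**Figure D2:**
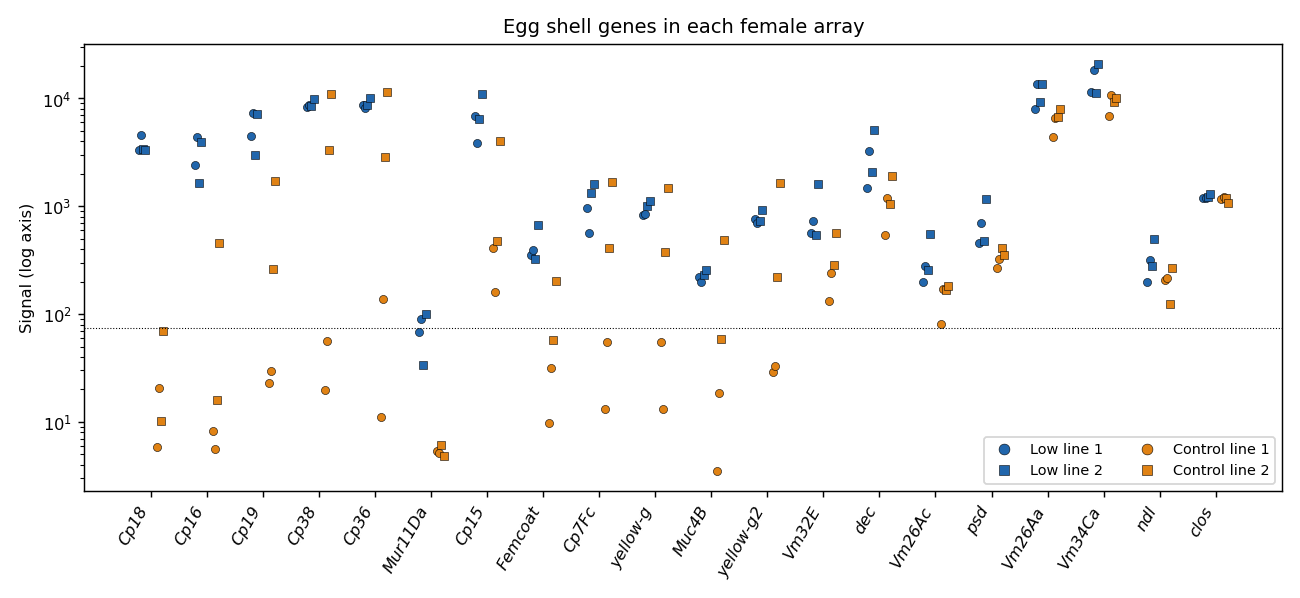
Signal (log axis) of the 20 egg shell genes in each female array, Low in blue on the left and Control in orange on the right of each gene, circles for line 1 and squares for line 2, ordered by the size of the difference. The dotted line is a Signal of 75; for Cp18, Cp16 and Cp19 all 4 Low arrays lie above all 4 Control arrays, and the Control arrays spread more widely than the Low arrays do.

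The yolk protein genes, made in fat body and follicle cells, were read at high Signal in both groups. *Yp2* had 22605 and 22929 in L line 1 and 18217 and 19775 in L line 2, against 15271 and 14821 in C line 1 and 15897 and 19273 in C line 2. In the fit of all arrays none of 4 yolk genes passed, and the median difference was 0.28, while the methods' analysis of the linear Signal called all 4 higher. In the fit of female arrays *Yp2* rose by 0.36 ± 0.11 (adjusted p = 0.0441), while *Yp1* (0.24 ± 0.09, adjusted p = 0.071), *Yp3* (0.30 ± 0.11, adjusted p = 0.0733) and *yl*, the yolk protein receptor of the oocyte (0.25 ± 0.11, adjusted p = 0.138), did not pass.

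Calls among genes of DNA replication were all rises. Of 39 tested, 15 (38.5%) rose and none fell, where 9.22% of all genes rose and 9.52% fell. A positive difference was found for 38, and 23 had all L arrays above all C arrays (9.43% of all genes), with a list median of 0.48. They include the origin-binding, helicase, primase, polymerase and clamp-loading proteins that copy the genome. *RfC3*, a subunit of the clamp loader, had 501.8 and 451.7 in L line 1 and 678.9 and 711 in L line 2, against 357.5 and 380.3 in C line 1 and 380.5 and 385.8 in C line 2 (difference 0.61 ± 0.08, adjusted p = 0.000506). The groups did not overlap, and L line 2 was the higher L line. *Psf1*, of the GINS complex at the replication fork, had 277.6 to 300 in L females and 60.4 to 161.9 in C females (1.31 ± 0.23, adjusted p = 0.00259). *Prim1*, a subunit of primase, had 337.4 to 559.2 in L females and 227.5 to 310 in C females (0.68 ± 0.12, adjusted p = 0.0029). In males the median of the list was -0.12 and no member was called, and 5 members differed between the sexes by the interaction test, all more positive in females. In the second fit, of the 12 female arrays, 28 of the 39 rose (12.6% of all genes in it rose and 10.3% fell), with log2(Signal + 50) 28, on the linear Signal 32 and with no filter 8. Without L line 2 a single member of the list rose (*Psf1*, adjusted p = 0.0374), the others including *RfC3* (0.104) and *Prim1* (0.151) not passing, while the median stayed at 0.36, and without C line 1 it was 3 members and 0.41. Without C line 2, 10 rose.

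Of 39 maternal and germline genes, 7 (17.9%) rose and 1 (2.56%) fell, where 9.22% of all genes rose and 9.52% fell. The other 31 did not pass, and the median was 0.21. On the linear Signal 19 rose and 4 fell, and with log2(Signal + 50) 15 rose. More of all probe sets rose under those settings too, 1814 and 1233 of 11439, beside 1006. *exu*, needed to localise *bcd* RNA in the oocyte, had 4242 and 3289 in L line 1 and 4272 and 4782 in L line 2, against 1687 and 2306 in C line 1 and 2347 and 2545 in C line 2 (0.90 ± 0.17, adjusted p = 0.0031). *spn-E*, an RNA helicase of the germline piRNA pathway, had 816.5 to 993 in L females and 545.5 to 659.3 in C females (0.51 ± 0.12, adjusted p = 0.00974). *CycB3*, a mitotic cyclin used in female meiosis, had 1869 to 2834 in L females and 1039 to 1806 in C females (0.66 ± 0.15, adjusted p = 0.0104). Some other oocyte transcripts were level, such as *osk*, with 8440 to 9532 in L females and 8177 to 9890 in C females (0.00 ± 0.07, adjusted p = 0.982 in the female fit). In that fit 11 of the list rose and 3 fell. The falls were *c(3)G* (-0.46 ± 0.10, adjusted p = 0.0166), *capu* (-0.31 ± 0.08, 0.0265) and *egl* (-0.25 ± 0.07, 0.0302). In the fit of all arrays without L line 2, none of the 39 rose and 2 fell. There *exu* was at an adjusted p of 0.0667, *spn-E* at 0.0937 and *CycB3* at 0.237. Without C line 1, 2 rose, and *spn-E* (0.081) and *CycB3* (0.231) did not pass. Without C line 2, 4 rose.

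Small heat shock proteins, of which *Hsp26* and *Hsp27* are also known as ovarian transcripts, were among the 4 of 16 heat shock genes that rose (25%, beside 9.22% of all genes; none fell, median 0.18). The list had 1 member higher without L line 2 or without C line 1. *Hsp27* had 4560 and 3765 in L line 1 and 5131 and 5698 in L line 2, against 2030 and 2665 in C line 1 and 2537 and 3486 in C line 2 (0.85 ± 0.20, adjusted p = 0.0102). *Hsp26* averaged 5605 ± 848 in L females and 3271 ± 468 in C females (SD, n = 4 arrays each; 0.78 ± 0.18, adjusted p = 0.00961 in limma). *Hsc70-2*, a heat shock cognate, had 182.1 and 172 in L line 1 and 111.1 and 119.8 in L line 2, against 40.3 and 30.9 in C line 1 and 7 and 35.4 in C line 2 (2.60 ± 0.34, adjusted p = 0.000412). Proteasome subunits moved by small amounts. Of 37 tested, 5 rose (13.5%), 2 fell (5.41%), 32 had a positive difference and the median was 0.17, where 9.22% of all genes rose and 9.52% fell. Among the 37, 11 had a median Signal under 75 over the 8 arrays. The second fit, with its limit over the 8 arrays, kept 26. There 3 rose (11.5%) and none fell, where 12.6% of all genes rose and 10.3% fell. With all 37, the balance turned with each array centred on its median (1 rose, 3 fell) and without L line 2 or C line 1 (1 rose, 2 fell each), while on the linear Signal 15 rose and none fell. *Rpn5*, of the proteasome lid, averaged 5183 in L females and 4391 in C females (0.24 ± 0.07, adjusted p = 0.0321), whereas *Rpt3R*, at 39.7 to 69.9 in L females and 3.2 to 34.7 in C females, differed by 2.29 ± 0.29 (adjusted p = 0.000321) and *Prosbeta2R1*, at 11.8 to 46 in L females and 31.3 to 96.6 in C females, fell by 1.39 ± 0.36 (adjusted p = 0.0182). The last 2 are paralogues read at low Signal. Without L line 2, *Hsp26* (adjusted p = 0.137), *Hsp27* (0.171) and *Rpn5* (0.116) did not pass. Without C line 1 the same held for *Hsp26* (0.0888), *Hsp27* (0.121) and *Rpn5* (0.191), without L line 1 for *Rpn5* (0.139) and *Prosbeta2R1* (0.0643), and without C line 2 for *Prosbeta2R1* (0.167).

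The egg shell and germline markers are members of the egg shell and germline lists above, so their sums repeat those values and are not a separate readout. The summed Signal of 11 egg shell markers was 55090 to 87160 in L females and 12420 to 49530 in C females, without overlap, although *Cp18* was under 75 in every C array. The 6 germline markers summed to 24450 to 26340 in L females and 21390 to 26430 in C females, which overlapped. The part of ovary content in the other differences was not tested.

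**Figure D3:**
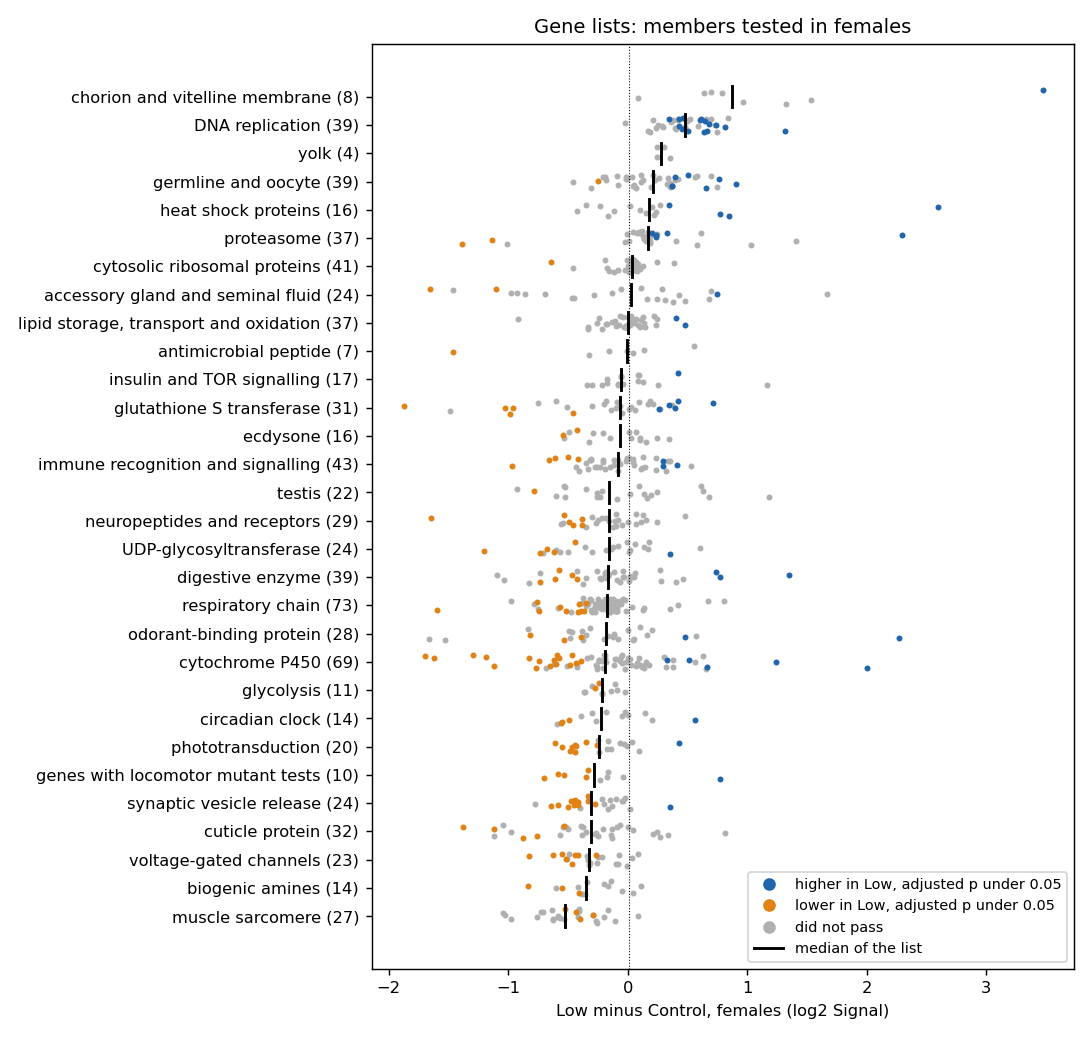
Low minus Control difference (log2 Signal, females) of each gene tested in the 30 gene lists, ordered by the list median (black bar), with the number of genes tested in brackets. Blue points rose in Low females, orange points fell and grey points did not pass; the dotted line is the median of all genes tested, 0.01, and the lists of the ovary lie to its right and those of nerve, eye and muscle to its left.

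Among genes of synaptic transmission most calls were falls. Of 24 genes of synaptic vesicle release tested, 11 (45.8%) fell, 1 rose (4.17%) and 12 did not pass, where 9.52% of all genes fell and 9.22% rose, with a median of -0.30, and for 11 all L arrays lay below all C arrays (8.08% of all genes). *Amph*, which encodes amphiphysin, a membrane-bending protein, had 2013 and 1978 in L line 1 and 1696 and 1839 in L line 2, against 2932 and 2989 in C line 1 and 2614 and 2712 in C line 2 (-0.58 ± 0.06, adjusted p = 0.000133). *Snap25*, a SNARE protein of vesicle fusion, had 1868 and 1808 in L line 1 and 2018 and 1873 in L line 2, against 2408 and 2847 in C line 1 and 2483 and 2525 in C line 2 (-0.44 ± 0.07, adjusted p = 0.00197). *cpx*, complexin, which clamps the fusion machinery, had 3068 to 3461 in L females and 4032 to 4769 in C females (-0.48 ± 0.08, adjusted p = 0.00222). For these 3 genes the groups did not overlap and each kept its call without any one line. In males 4 members of this list were called lower and the median was -0.10. The list had 5 members lower (20.8%, beside 2.98% of all genes) and a median of -0.24 when L line 2 was left out. Without C line 1 it had 7 members lower (29.2%, beside 4.2% of all genes).

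Voltage-gated and calcium-activated channels also had calls in 1 direction. Of 23 tested, 8 (34.8%) fell, none rose, and the median was -0.33, where 9.52% of all genes fell. *SK*, a calcium-activated potassium channel, had 194.6 and 180.1 in L line 1 and 283.1 and 246 in L line 2, against 383.8 and 511.5 in C line 1 and 322.8 and 382.1 in C line 2 (-0.83 ± 0.11, adjusted p = 0.000562). *Sh*, the Shaker potassium channel, had 204.5 to 240.5 in L females and 290.8 to 419.6 in C females (-0.62 ± 0.12, adjusted p = 0.00322). *NaCP60E*, a channel of the sodium channel family, had 152.5 to 195.6 in L females and 219.7 to 247.6 in C females (-0.44 ± 0.10, adjusted p = 0.00717). None of the 3, picked by smallest p, overlapped between groups. In the whole list 4 of 23 had all L arrays below all C arrays, where 8.08% of all genes did. Leaving out L line 2, the list had 2 members lower and a median of -0.21, with *Sh* (adjusted p = 0.0513) and *NaCP60E* (0.167) not passing, and *Sh* also missed the threshold without C line 1 (0.0886), where 4 members were lower. With the same probe sets fitted in the 12 or in the 8 female arrays alone, 5 were called.

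Of 29 neuropeptides and their receptors tested, 6 (20.7%) fell and none rose (median -0.16), where 9.52% of all genes fell. Only 2 fell without L line 2, without C line 1 only 1, and with the same probe sets fitted in the 12 or in the 8 female arrays alone, 3. *ITP*, the ion transport peptide, had 371.5 to 384.7 in L females and 464.9 to 579.2 in C females (-0.46 ± 0.08, adjusted p = 0.00238). *Nplp1*, a neuropeptide precursor, had 739.3 to 801.1 in L females and 908.3 to 1091 in C females (-0.38 ± 0.09, adjusted p = 0.00998), and did not pass without L line 2 (0.0978) or without C line 1 (0.109). *TkR99D*, a tachykinin receptor, differed through 1 line only. It had 69.4 and 48.4 in L line 1 and 105.5 and 71.1 in L line 2, against 684.1 and 830.7 in C line 1 but 59.2 and 72.4 in C line 2 (-1.65 ± 0.22, adjusted p = 0.000507), and without C line 1 the difference was 0.11 (adjusted p = 0.839).

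Among 14 genes of biogenic amine synthesis and reception, 3 (21.4%) fell and none rose (median -0.35), where 9.52% of all genes fell. A single member fell without C line 1, on the linear Signal or with no filter. *5-HT1A*, a serotonin receptor, had 69.5 and 90.3 in L line 1 and 40.4 and 38.6 in L line 2, against 103.7 and 78.3 in C line 1 and 123.2 and 97.9 in C line 2 (-0.83 ± 0.16, adjusted p = 0.00361). *Pu*, GTP cyclohydrolase, which makes the cofactor for dopamine and serotonin synthesis, averaged 1088 ± 161 in L females and 1592 ± 214 in C females (SD, n = 4 arrays each; -0.55 ± 0.16, adjusted p = 0.0273 in limma). *Ddc*, the decarboxylase that forms dopamine and serotonin, averaged 541 ± 91.7 in L females and 710 ± 63.9 in C females (-0.40 ± 0.13, adjusted p = 0.043). L line 2 was the lower L line for all 3. Without it none of the list passed (*5-HT1A* 0.366, *Pu* 0.289, *Ddc* 0.571). *Pu* (0.262) and *Ddc* (0.0886) did not pass without C line 1 either, nor *Ddc* without C line 2 (0.242). Both also missed the threshold when any 1 of the 8 arrays was left out, with adjusted p up to 0.0741 for *Pu* and 0.128 for *Ddc*.

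Phototransduction genes, read in whole flies, fell in 9 of 20 cases (45%) and 1 rose (median -0.24), where 9.52% of all genes fell. *Calx*, the sodium-calcium exchanger, had 517.1 and 559.8 in L line 1 and 493.1 and 495.6 in L line 2, against 656.1 and 854.2 in C line 1 and 733.4 and 783.5 in C line 2 (-0.55 ± 0.08, adjusted p = 0.000818). *Galphaq*, the G protein subunit activated by rhodopsin, had 1257 to 1359 in L females and 1631 to 1863 in C females (-0.44 ± 0.08, adjusted p = 0.00323). *trpl*, a light-gated cation channel, had 1425 to 2220 in L females and 2282 to 2812 in C females (-0.61 ± 0.12, adjusted p = 0.00433), and did not pass without L line 2 (0.151). The groups were apart for all 3, which were picked by smallest p. Of the 20, 10 had all L arrays below all C arrays and 1 all above (8.08% and 9.43% of all genes). This list had 2 members lower and a median of -0.14 without L line 2, and without C line 2, 3 members and -0.24. Of 14 clock genes, 3 (21.4%) fell and 1 rose (7.14%, median -0.22). The falls were 5 after quantile normalization or centring on the median, and 1 without L line 2 or without C line 1. *cyc*, an activator of the clock, had 639.8 to 880 in L females and 445 to 562.4 in C females (0.56 ± 0.10, adjusted p = 0.00253). *tim*, a repressor of the clock, had 370.9 to 564.2 in L females and 670.8 to 775.8 in C females (-0.55 ± 0.13, adjusted p = 0.0122), and *Pdp1*, a clock-controlled activator, had 511.6 to 706.4 in L females and 796.2 to 1037 in C females (-0.56 ± 0.11, adjusted p = 0.0059). Collection of the flies took place in the hours of the behavioural tests, in the morning some hours after lights came on. On leaving lines out, *cyc* (0.0855) and *tim* (0.0887) did not pass without L line 2, and *tim* did not without C line 1 (0.082).

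Summed over 4 eye markers, Signal was 26040 to 30660 in L females and 30540 to 36040 in C females, which overlapped. All 4 were above 75 in both groups. The egg shell markers given above were higher in L females, without overlap. Neither was tested for its part in the lower nerve and eye lists.

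Muscle genes were lower chiefly in 1 line. Of 27 sarcomere genes 4 (14.8%) fell, none rose, 26 had a negative difference and the median was -0.52, where 9.52% of all genes fell. The fit of the 8 female arrays alone called 14 lower, that with log2(Signal + 50) 7 and that with no filter 2. *Act88F*, the actin of the flight muscle, had 13689 and 20226 in L line 1 and 3500 and 8489 in L line 2, against 18115 and 18765 in C line 1 and 18524 and 19501 in C line 2 (-0.97 ± 0.56, adjusted p = 0.235). *fln*, flightin, a thick filament protein, had 14296 and 18034 in L line 1 and 6503 and 10521 in L line 2, against 16916 and 19115 in C line 1 and 16749 and 18688 in C line 2 (-0.63 ± 0.34, adjusted p = 0.208). Neither passed, and L line 2 was below every other array for both. The members that fell were called on small differences, such as *tmod*, an actin-capping protein, at 2138 ± 479 in L females and 2779 ± 335 in C females (SD, n = 4 arrays each; -0.40 ± 0.09, adjusted p = 0.00807 in limma), *sls*, a titin-like protein, at 725 ± 100 in L females and 1045 ± 192 in C females (-0.52 ± 0.12, adjusted p = 0.00865), and *Zasp66*, a Z-disc protein, at 9590 ± 1227 in L females and 11635 ± 594 in C females (-0.29 ± 0.08, adjusted p = 0.0192). Without L line 2 no sarcomere gene passed (*tmod* 0.6, *sls* 0.227, *Zasp66* 0.518) and the median was -0.13. Without L line 1, 15 passed and it was -0.77. Without C line 2, 2 passed. Without C line 1, 1 gene passed and *tmod* (0.165) and *Zasp66* (0.0918) did not.

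The respiratory chain, too, was lower in L line 2 than in L line 1. Of 73 genes, 10 (13.7%) fell, none rose, and the median was -0.17, where 9.52% of all genes fell. With no filter 4 fell. *SdhD*, a membrane subunit of complex II, had 5435 and 5838 in L line 1 and 3942 and 4582 in L line 2, against 7720 and 7700 in C line 1 and 6303 and 6443 in C line 2 (-0.52 ± 0.13, adjusted p = 0.0126). *ND-B14*, a subunit of complex I, averaged 5995 ± 1125 in L females and 7959 ± 1589 in C females (SD, n = 4 arrays each; -0.41 ± 0.10, adjusted p = 0.0143 in limma). *ATPsynbetaL*, a paralogue of the ATP synthase beta subunit, was read at 65.6 to 85.7 in L females and 112.2 to 154.1 in C females (-0.74 ± 0.15, adjusted p = 0.00562). With L line 2 left out none of the list passed (*SdhD* 0.276, *ND-B14* 0.483, *ATPsynbetaL* 0.0517) and the median was 0.04, and without L line 1, 17 passed and it was -0.40. Without C line 1, 2 passed, and *SdhD* (0.107) and *ND-B14* (0.384) did not pass. In glycolysis 2 of 11 genes (18.2%) fell, *Hex-A*, a hexokinase, at 2888 ± 364 in L females and 3508 ± 544 in C females (-0.28 ± 0.07, adjusted p = 0.0205), and *Pgi*, the isomerase of the next step, at 7712 ± 1236 in L females and 9025 ± 644 in C females (-0.24 ± 0.07, adjusted p = 0.0379), and both lost the call without L line 2 (0.554 and 0.794) and without C line 1 (0.558 and 0.278). Summed over 3 flight muscle markers, Signal was 17370 to 49850 in L females and 45400 to 52690 in C females, the low end being L line 2. Its part in these lists was not tested.

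**Figure D4:**
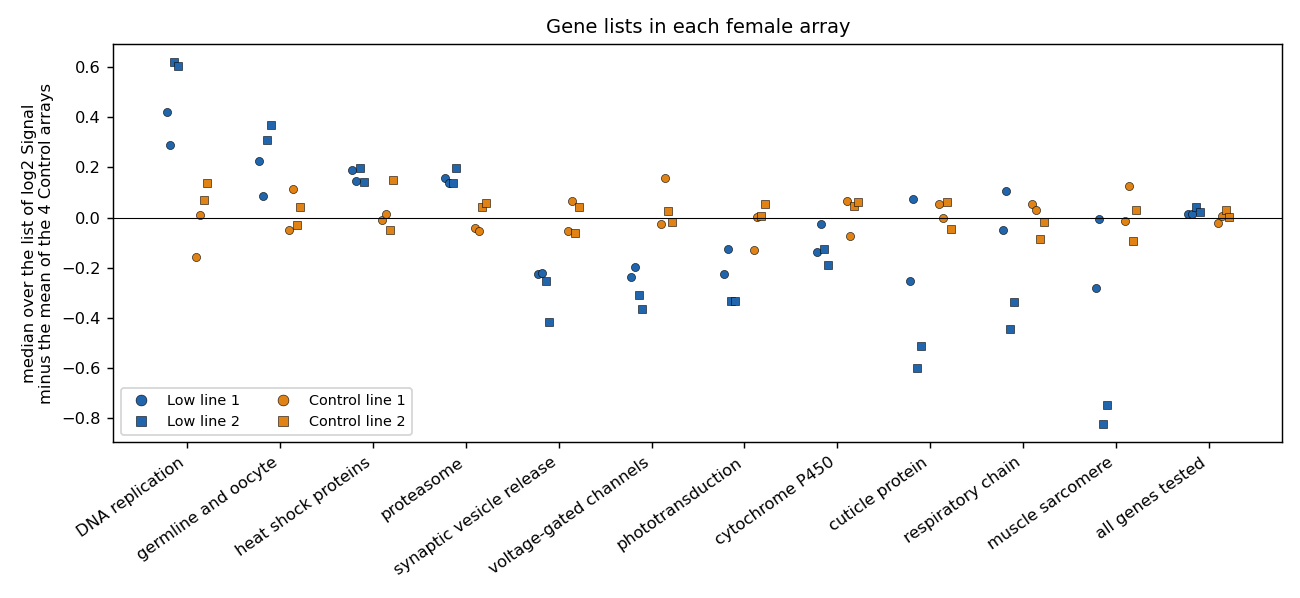
Median over each gene list of log2 Signal minus the mean of the 4 Control arrays, in each female array, Low in blue on the left and Control in orange on the right of each list, circles for line 1 and squares for line 2. Both Low lines lie apart from Control for DNA replication, proteasome, synaptic vesicle release and voltage-gated channels, while muscle sarcomere and respiratory chain are low in Low line 2 and overlap Control in Low line 1.

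Enzymes of detoxification moved in both directions. Of 69 cytochrome P450 genes 17 (24.6%) fell and 5 (7.25%) rose (median -0.19), where 9.52% of all genes fell and 9.22% rose. The falls were 7 without L line 2 (median -0.09), without C line 1, 11, and on the linear Signal 9. *Cyp6a23* had 698.4 and 768.2 in L line 1 and 2511 and 2193 in L line 2, against 4856 and 4757 in C line 1 and 3802 and 3685 in C line 2 (-1.69 ± 0.12, adjusted p = 3.08e-06). *Cyp6a17* had 1996 and 1998 in L line 1 and 962.4 and 1034 in L line 2, against 516.6 and 170.3 in C line 1 and 456.4 and 380.9 in C line 2 (2.00 ± 0.33, adjusted p = 0.00171). *Cyp6a22* had 918.8 to 1053 in L females and 560.5 to 677.3 in C females (0.67 ± 0.08, adjusted p = 0.000239). These 3 P450 genes are close paralogues, and how far their probe sets share sequence was not examined. *Cyp28d1* had 1658 to 2642 in L females and 3706 to 6272 in C females (-1.12 ± 0.15, adjusted p = 0.000562). All 4 kept their call without any one line, and each moved the same way in males, by -1.50 (*Cyp6a23*), 2.38 (*Cyp6a17*), 0.64 (*Cyp6a22*) and -1.01 (*Cyp28d1*).

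Of 31 glutathione S-transferases 5 rose and 5 fell (16.1% each, median -0.06), where 9.22% and 9.52% of all genes did. The split was 2 higher and 7 lower with each array centred on its median, 5 and 2 on the linear Signal, and 2 and 3 with no filter. It was 0 and 3 without L line 2, 2 and 4 without C line 1, 3 and 5 without L line 1, and 4 and 3 without C line 2. *GstE5* had 265.6 to 363.2 in L females and 480.9 to 670.6 in C females (-0.99 ± 0.11, adjusted p = 0.000138), and *GstD7* 30.4 to 43.7 in L females and 112.1 to 171.9 in C females (-1.87 ± 0.34, adjusted p = 0.00304). *GstT1* had 1591 to 1916 in L females and 1290 to 1459 in C females (0.40 ± 0.07, adjusted p = 0.00202), and missed the threshold without L line 2 (0.0875). Of 24 UDP-glycosyltransferases 5 (20.8%) fell and 1 rose (median -0.16; 1 fell without L line 2 or without C line 1), led by *Ugt37D1* at 650.5 to 773.2 in L females and 836.2 to 1530 in C females (-0.68 ± 0.09, adjusted p = 0.000612). It did not pass without C line 1 (0.152). *Ugt36D1* averaged 1049 ± 189 in L females and 1592 ± 166 in C females (SD, n = 4 arrays each; -0.61 ± 0.12, adjusted p = 0.00361 in limma), and *Ugt303B1* had 48.6 to 72.1 in L females and 97.8 to 197 in C females (-1.20 ± 0.26, adjusted p = 0.00794). These were at 0.144 and 0.0694 without L line 2, and at 0.0598 and 0.121 without C line 1.

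Of 28 odorant-binding proteins, soluble carriers that are secreted in many tissues as well as in the antenna, 2 rose (7.14%) and 3 fell (10.7%), near the 9.22% and 9.52% of all genes (median -0.18). The falls were 7 without L line 1, 1 without L line 2, none without C line 1 and 5 without C line 2. *Obp99a* had 1305 and 1448 in L line 1 and 1039 and 1715 in L line 2, against 193.8 and 159.7 in C line 1 and 432.7 and 462.6 in C line 2 (2.27 ± 0.16, adjusted p = 1.51e-06). *Obp99c* had 12184 to 14300 in L females and 7190 to 10578 in C females (0.48 ± 0.10, adjusted p = 0.00666), and *Obp56a* averaged 603 ± 221 in L females and 936 ± 516 in C females (-0.53 ± 0.13, adjusted p = 0.0135 in limma). *Obp99a* passed without any one line. *Obp99c* did not pass without C line 1 (0.127). *Obp56a* did not without L line 2 (0.834), and without C line 1 its difference was 0.17 (0.546).

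Of 32 cuticle protein genes, 5 (15.6%) fell and none rose (median -0.31), where 9.52% of all genes fell. The falls were 1 without L line 2, none without C line 1, 3 without C line 2 or on the linear Signal, and 8 in the fit of the 8 female arrays. *Cpr66D* had 100.3 to 178.3 in L females, against 542.5 and 480.9 in C line 1 and 126.3 and 169.1 in C line 2 (-1.12 ± 0.23, adjusted p = 0.00609), so that C line 2 lay among the L arrays, and without C line 1 it did not pass (0.7). *Cpr47Ef* averaged 172 ± 81.9 in L females and 295 ± 56.5 in C females (-0.88 ± 0.21, adjusted p = 0.0135 in limma, n = 4 arrays each), and *TwdlT* 94.6 ± 31.2 in L females and 157.8 ± 39.7 in C females (-0.76 ± 0.20, adjusted p = 0.0169). Adjusted p without L line 2 was 0.0542 for *Cpr66D*, 0.498 for *Cpr47Ef* and 0.341 for *TwdlT*. Without C line 1, *Cpr47Ef* was at 0.131 and *TwdlT* at 0.292.

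Digestive enzymes had 5 of 39 genes lower (12.8%) and 3 higher (7.69%), near the 9.52% and 9.22% of all genes, with a median of -0.16. None was called without L line 2, without C line 1, 2 were lower and none higher, and without C line 2, 3 lower and 2 higher. *etaTry*, a trypsin, had 460.4 to 544.1 in L females and 686.4 to 818.4 in C females (-0.58 ± 0.11, adjusted p = 0.00456), *thetaTry*, another trypsin, 3639 to 4534 in L females and 5184 to 5902 in C females (-0.46 ± 0.11, adjusted p = 0.0131), and *Mal-A8*, a maltase, 1272 to 1917 in L females and 2068 to 3194 in C females (-0.74 ± 0.17, adjusted p = 0.00972). None of these 3, picked by smallest p, overlapped between the groups. Of the 39, 6 had all L arrays below all C arrays and 1 all above (8.08% and 9.43% of all genes). The adjusted p of the 3 was 0.0614 (*etaTry*), 0.219 (*thetaTry*) and 0.106 (*Mal-A8*) without L line 2. *Mal-A8* was at 0.134 without C line 1 and *thetaTry* at 0.0728 without C line 2. Summed over 4 midgut markers, Signal was 65740 to 84220 in L females and 69050 to 79580 in C females, which overlapped.

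Of 43 genes of immune recognition and signalling 3 rose and 5 fell (6.98% and 11.6%, median -0.08), both near the 9.22% and 9.52% of all genes. On the linear Signal 6 rose and 3 fell, and without L line 2 or without C line 1 1 rose and 2 fell. *spz*, the Toll ligand precursor, had 786.8 to 878.2 in L females and 589.4 to 651.4 in C females (0.41 ± 0.06, adjusted p = 0.000943). *BomS4*, a short immune-induced peptide, averaged 2798 ± 534 in L females and 3925 ± 443 in C females (SD, n = 4 arrays each; -0.50 ± 0.11, adjusted p = 0.00717 in limma), and *GNBP2*, a glucan-binding protein, 249 ± 57.4 in L females and 385 ± 7.23 in C females (-0.65 ± 0.14, adjusted p = 0.00718). Of 7 antimicrobial peptide genes tested, *Def*, the defensin, fell, with 183.8 and 337 in L line 1 and 193.5 and 139.9 in L line 2, against 917.5 and 710.2 in C line 1 and 437.5 and 341.8 in C line 2 (-1.47 ± 0.36, adjusted p = 0.0137). *spz* passed without any one line. *GNBP2* (0.155) and *Def* (0.133) did not pass without L line 2, nor did *Def* (0.242) and *BomS4* (0.0892) without C line 1 or *BomS4* (0.166) without L line 1.

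Lists of lipid metabolism, translation and hormone signalling had medians near that of all genes, of which 9.22% rose and 9.52% fell. Of 37 genes of lipid storage, transport and oxidation 2 rose (5.41%) and none fell (median 0.00). *Acox57D-p*, a peroxisomal acyl-CoA oxidase, averaged 862 ± 133 in L females and 612 ± 33.4 in C females (SD, n = 4 arrays each; 0.48 ± 0.10, adjusted p = 0.00536 in limma), and *yip2*, a thiolase of fatty acid oxidation, 5053 ± 413 in L females and 3858 ± 661 in C females (0.40 ± 0.09, adjusted p = 0.0102). Neither passed without L line 2 (0.178 and 0.157) or without C line 1 (0.0517 and 0.33). Of 41 cytosolic ribosomal proteins, 1 fell and none rose (median 0.03). With each array centred on its median the medians of these 2 lists were -0.06 and -0.02. The ribosomal gene was *RpL27*, with 9618 and 10089 in L line 1 and 21533 and 19950 in L line 2, against 22958 and 22566 in C line 1 and 20328 and 23413 in C line 2 (-0.64 ± 0.08, adjusted p = 0.000181), a difference carried by L line 1 (adjusted p = 0.48 without it). *slif*, an amino acid transporter, was the 1 of 17 genes of insulin and TOR signalling to rise, at 2321 ± 163 in L females and 1739 ± 225 in C females (0.42 ± 0.11, adjusted p = 0.0139). It did not pass without L line 2 (0.168) or without C line 1 (0.172). Of 16 ecdysone genes 2 fell (12.5%) and none rose. *Hr38*, a nuclear receptor, averaged 91.5 ± 11.2 in L females and 125 ± 34.4 in C females (-0.42 ± 0.11, adjusted p = 0.0142), and *shd*, which makes the active hormone, 92.7 ± 18.6 in L females and 134 ± 18.9 in C females (-0.54 ± 0.18, adjusted p = 0.0464). Neither passed without L line 1 (0.0612 and 0.328), without L line 2 (0.064 and 0.089) or without C line 1 (0.7 and 0.0825), and *shd* did not without C line 2 (0.205).

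The 10 largest rises and 10 largest falls were taken among called probe sets whose Signal over the 8 arrays had a median of 75 or more and whose groups did not overlap, so their lack of overlap is not a result. *Obp99a*, *Hsc70-2* and *Cyp6a17*, given above, were among the rises. *CG18179* had 397.3 and 234.9 in L line 1 and 256.7 and 432.1 in L line 2, against 7.5 and 11 in C line 1 and 84.8 and 112.6 in C line 2 (3.42 ± 0.65, adjusted p = 0.00367). *Muc12Ea*, which encodes a mucin, had 912.3 to 2210 in L females and 200.2 to 721.6 in C females (2.18 ± 0.59, adjusted p = 0.0213). *CG33109* had 1815 and 1219 in L line 1 and 1458 and 1174 in L line 2, against 197.9 and 192.2 in C line 1 and 618.8 and 669.1 in C line 2 (1.98 ± 0.40, adjusted p = 0.00531). C line 1 was the lower C line for all 3. *AANATL2*, of the arylalkylamine N-acetyltransferase family, had 111.4 to 152.8 in L females and 18.2 to 87.8 in C females (1.77 ± 0.44, adjusted p = 0.0139), and *CG13313* 134.7 to 261.3 in L females and 11.8 to 120.1 in C females (1.71 ± 0.53, adjusted p = 0.0379). *tkv*, a type I receptor for Dpp signals, had 424.4 and 352.2 in L line 1 and 329.7 and 496.8 in L line 2, against 75.7 and 89.9 in C line 1 and 231.1 and 294 in C line 2 (1.43 ± 0.18, adjusted p = 0.000315), while another probe set of *tkv* differed by -0.22 and did not pass. *mthl8*, a Methuselah-like receptor, had 139.7 to 273 in L females and 39.5 to 124.5 in C females (1.40 ± 0.22, adjusted p = 0.00119), and its other probe set rose by 0.73 (adjusted p = 0.0339).

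Without C line 1, *CG18179* (adjusted p = 0.222), *Muc12Ea* (0.169), *AANATL2* (0.178) and *tkv* (0.124) did not pass. Leaving out L line 2, *Muc12Ea* (0.174), *AANATL2* (0.142) and *CG13313* (0.126) did not, and *CG13313* was also lost without L line 1 (0.166) and without C line 2 (0.325). Single arrays decided some of these too. *Muc12Ea* lost its call in 4 of the 8 fits that left out 1 array, *AANATL2* in 2 and *CG13313* in 7, with adjusted p up to 0.081, 0.0536 and 0.135.

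The largest falls held better when a line was left out. *Nepl20*, a neprilysin-like peptidase gene, averaged 47.0 ± 29.5 in L females and 317 ± 65.9 in C females (SD, n = 4 arrays each; -2.93 ± 0.22, adjusted p = 3.08e-06 in limma). *Ir76a*, an ionotropic receptor of the antenna, had 19.7 and 11.8 in L line 1 and 25.2 and 48.3 in L line 2, against 167.8 and 131.2 in C line 1 and 204.4 and 199.3 in C line 2 (-2.91 ± 0.30, adjusted p = 6.92e-05). *Tsp39D*, a tetraspanin, had 26.1 to 90.3 in L females and 203.6 to 296 in C females (-2.62 ± 0.28, adjusted p = 0.000109). Every L array of these 3 genes was under 100 and every C array over it. *CG11893* had 474 and 505.8 in L line 1 and 382.7 and 259.6 in L line 2, against 2836 and 1790 in C line 1 and 1736 and 1754 in C line 2 (-2.34 ± 0.23, adjusted p = 4.03e-05). *CG6908* had 307 to 552.7 in L females and 1429 to 2038 in C females (-2.02 ± 0.15, adjusted p = 3.2e-06). *CG9360* had 2112 and 2257 in L line 1 and 501 and 681.6 in L line 2, against 6466 and 5515 in C line 1 and 2580 and 2806 in C line 2 (-1.83 ± 0.17, adjusted p = 3.18e-05), so that in both groups line 1 was the higher. *CG9825* had 9.3 to 152.3 in L females and 154.3 to 361.8 in C females (-2.70 ± 0.38, adjusted p = 0.000662), *MFS3*, of the major facilitator family of transporters, 26.5 to 132 in L females and 205.6 to 255.3 in C females (-1.99 ± 0.22, adjusted p = 0.000111), and *CG31041* 39 to 116.8 in L females and 236.8 to 414.6 in C females (-1.89 ± 0.54, adjusted p = 0.0274). *GstD7*, given above, completes the falls. *CG9825* did not pass without L line 2 (0.123). *CG31041* did not pass without L line 1 (0.109), L line 2 (0.0967) or C line 1 (0.0772), nor in 5 of the 8 fits without 1 array (adjusted p up to 0.113). The other 8 kept their call without any one line. H females, set against the same C arrays, had *CG6908* at 1.37 (adjusted p = 0.000149) and *Nepl20* at -1.75 (adjusted p = 0.000388).

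The study had chosen 10 genes from these same arrays for tests of mutants in locomotor behaviour, so their direction here is not independent evidence. Of the 10, 5 fell (50%), 1 rose (10%) and 4 did not pass (median -0.28), where 9.52% of all genes fell and 9.22% rose. *Amph* is given above. *mbl*, a splicing regulator of muscle and nerve, had 206.5 and 196.4 in L line 1 and 200 and 209.5 in L line 2, against 313.1 and 382.8 in C line 1 and 318 and 313.3 in C line 2 (-0.70 ± 0.10, adjusted p = 0.000718). *Csp*, a synaptic vesicle chaperone, had 1699 to 1818 in L females and 2108 to 2486 in C females (-0.33 ± 0.07, adjusted p = 0.00694). *CG31145* had 926.1 to 1140 in L females and 1343 to 1556 in C females (-0.53 ± 0.11, adjusted p = 0.00598), and *Pdcd4* 903.1 to 1010 in L females and 1055 to 1393 in C females (-0.34 ± 0.11, adjusted p = 0.0347). *neb*, a kinesin-like protein, had 354.8 to 389.5 in L females and 156.2 to 266.4 in C females (0.78 ± 0.15, adjusted p = 0.00506). The groups did not overlap for any of these 6, the members that passed. Over all genes, 8.08% had all L arrays below all C arrays and 9.43% had them all above. *CG33523* (-0.17 ± 0.07, adjusted p = 0.102), *ken* (-0.04 ± 0.09, 0.769), *cdi* (-0.23 ± 0.08, 0.0555) and *trn* (-0.18 ± 0.08, 0.112) did not pass. *Amph* and *mbl* passed without any one line, whereas without L line 2 *Csp* was at 0.0679, *CG31145* at 0.0815, *Pdcd4* at 0.233 and *neb* at 0.0651, and without C line 1 they were at 0.0618, 0.0663, 0.361 and 0.0512. *Pdcd4* also missed the threshold without L line 1 (0.0533) and in 7 of the 8 fits without 1 array.

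Lines of the same group differed as well. Over the probe sets tested, the median size of the log2 difference between the 2 L lines was 0.22, and between the 2 C lines 0.19. Over the called probe sets these were 0.25 and 0.21 on the log2 scale. The median fold of 1.42 between L and C is on the linear scale, and those probe sets were called for that difference. The L line means were both above, or both below, the C line means in 1963 of the 2142 called probe sets and in 5539 (48.4%) of those tested. Some called genes were near absent from all lines but 1. *CG12470* had 150.2 and 146 in L line 1, against 1.4 and 1.6 in L line 2, 2 and 1.8 in C line 1 and 2.6 and 3.8 in C line 2, and called as a rise of 2.61 ± 0.11 (adjusted p = 1.77e-08) it became -0.71 (0.009) without L line 1. *Rsph4a*, a radial spoke gene of cilia and flagella, had 2.6 and 2.5 in L line 1 and 3 and 1.7 in L line 2, against 500.5 and 566.7 in C line 1 but 4.2 and 3.6 in C line 2 (-4.25 ± 0.36, adjusted p = 1.21e-05, and 0.387 without C line 1). *CG14691* had 1.8 to 12.1 in L females, against 3.2 and 4.5 in C line 1 and 155.7 and 172.8 in C line 2 (-2.22 ± 0.30, adjusted p = 0.000498), and *CG14384* 2.2 to 6.2 in L females, against 2.3 and 4 in C line 1 and 70.6 and 79.3 in C line 2 (-2.20 ± 0.42, adjusted p = 0.00408). Without C line 2 these differences were 0.50 (0.415) and 0.11 (0.916). The reverse held for *CG30083*, near absent from C line 1 alone. It had 128.9 and 75.1 in L line 1 and 457.6 and 396.6 in L line 2, against 8.6 and 6.1 in C line 1 and 167.7 and 250.8 in C line 2 (2.41 ± 0.26, adjusted p = 0.000109), and was level without C line 1 (0.00, 0.998).

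L line 2 stood apart from the other 3 lines for *Cyp12d1-d*, a P450 gene, with 2385 and 1713 in L line 1 and 283.7 and 233.1 in L line 2, against 2137 and 2181 in C line 1 and 1068 and 1449 in C line 2 (-1.18 ± 0.23, adjusted p = 0.00418). It differed by 0.30 (0.564) without L line 2, and without C line 1 it did not pass (0.117). L line 2 was also low for *Acp36DE* and *Dup99B*, seminal fluid genes read near background in females. *Acp36DE* had 40.2 and 40.5 in L line 1 and 2.3 and 7 in L line 2, against 33.2 and 23.1 in C line 1 and 64.3 and 51.8 in C line 2 (-1.65 ± 0.35, adjusted p = 0.00646). *Dup99B* had 54.8 and 38.6 in L line 1 and 4.4 and 4.3 in L line 2, against 30 and 10.1 in C line 1 and 85.3 and 33.1 in C line 2 (-1.10 ± 0.33, adjusted p = 0.0331). These 2 differed by 0.01 (0.99) and 0.60 (0.49) without L line 2, and without C line 2 neither passed (0.116 and 0.618). *CG10317* averaged 19.1 ± 18.9 in L females and 46.5 ± 20.1 in C females (SD, n = 4 arrays each; -1.93 ± 0.47, adjusted p = 0.0132 in limma), and did not pass without L line 2 (0.765), C line 1 (0.0517) or C line 2 (0.0741). Of 24 seminal fluid genes tested, 2 fell as given (8.33%) and 1 rose (4.17%), where 9.52% of all genes fell and 9.22% rose. But 23 of the 24 had a median Signal under 75 over the 8 female arrays. They passed the limit only over all 24 arrays, males included, so these shares describe values near background. The rise was that of *Acp95EF*, at 180 ± 17.5 in L females and 109 ± 22.3 in C females (0.75 ± 0.15, adjusted p = 0.00453), which was at 0.103 without C line 1. Of 22 testis genes, 20 of them likewise under 75 over the 8 arrays, 1 fell (4.55%) and none rose. It was *Mst84Dc*, a sperm tail protein gene, at 38.7 ± 9.54 in L females and 65.9 ± 9.80 in C females (-0.79 ± 0.16, adjusted p = 0.00469), and at 0.0703 without L line 2. *Acp95EF*, at most 206.4 in any female array, was the brightest of the seminal fluid and testis genes named here.

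Males of the same lines gave fewer calls, 448 of 11439 probe sets (3.92%), of which 182 rose and 266 fell. Of the 2142 probe sets called in females, 1470 had the same sign in males, 236 were also called there in the same direction and 13 in the opposite one. The difference between the sexes was itself called for 215 probe sets (1.88%), 165 more positive in females and 50 more negative, and 177 of these were among the calls in females. Of the 30 lists, DNA replication held 5 such genes, the germline list 3 and no other more than 2. *CG18179* (3.62 in males, adjusted p = 0.00623), *Cyp6a17* (2.38, 0.000861), *Nepl20* (-2.63, 1.96e-05), *Tsp39D* (-2.76, 8.3e-05), *CG11893* (-2.02, 0.000194) and *CG9360* (-1.92, 2.92e-05) differed in males in the same direction.

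Other leading genes differed between the sexes by that test. *Obp99a* differed by -0.41 in males (adjusted p = 0.185), 2.68 below the female difference (adjusted p of the difference 4.11e-05). *Hsc70-2* differed by -0.03 in males (difference between sexes 2.63, adjusted p = 0.0228), *tkv* by -0.36 (1.80, 0.00593) and *MFS3* by -0.11 (-1.88, 0.0142). *dpr17*, an immunoglobulin-domain protein of the nervous system, had 54 and 63 in L line 1 and 14 and 11.2 in L line 2 of the females, against 101.1 and 144.7 in C line 1 and 79.1 and 98.3 in C line 2 (-1.93 ± 0.13, adjusted p = 1.51e-06), with -0.10 in males (difference between sexes -1.83, adjusted p = 0.000335). *CG3823* went opposite ways, at -0.35 ± 0.07 in females (adjusted p = 0.00676) and 0.63 in males (adjusted p = 0.00029), a difference of -0.98 (adjusted p = 0.000446). In females it had 282.9 to 442.5 in L and 376.7 to 517.8 in C, overlapping, and did not pass without L line 2 (0.697) or without C line 1 (0.329).

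**Figure D5:**
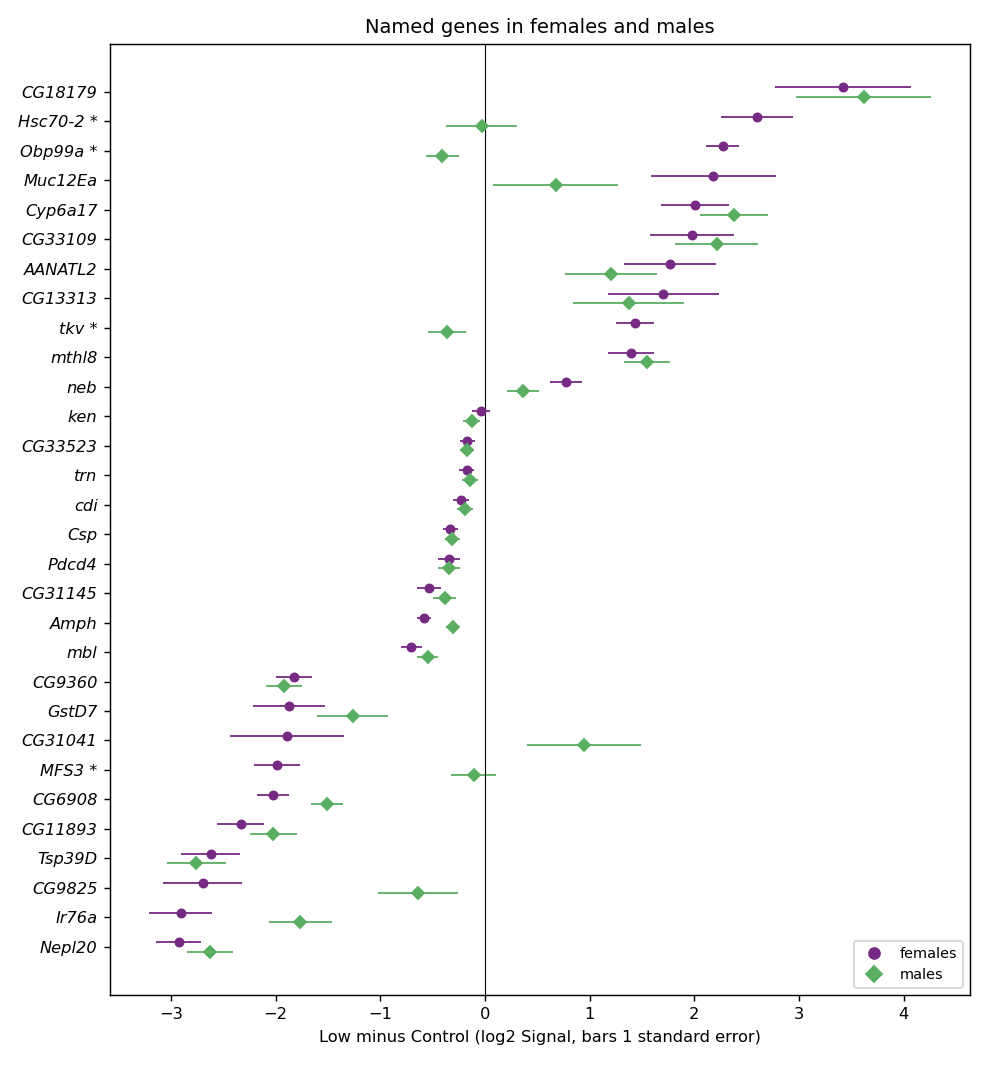
Low minus Control difference (log2 Signal, bars 1 standard error of the limma fit) of the 20 genes with the largest differences and of the 10 genes with locomotor mutant tests, in females (purple circles) and in males (green diamonds) of the same lines. An asterisk marks a difference between the sexes with an adjusted p under 0.05; Obp99a, Hsc70-2, tkv and MFS3 differ in females while their male differences lie between -0.41 and -0.03, and most of the large falls lie together in both sexes.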

How the data were processed

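RNA of 24 samples of whole flies, 8 of them females of the L and C lines, had been hybridised to Affymetrix Drosophila GeneChip 2.0 arrays. The authors made the deposited Signal values, which are intensities on a linear scale, with MAS5, version 5 of the Affymetrix Microarray Suite (per the labels and the study's methods), scaled to a common level on each array, which makes values relative to each array's total. No genome build is named in the sources read, arrays give no read depth, and the number of arrays limits precision.

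Of 18769 probe sets, 11439 whose median Signal across the 24 arrays reached 75 were tested, 1691 of them under 75 over the 8 arrays compared. The platform table gave 13646 probe sets 1 gene symbol, 402 several and 4721 none, and genes were named only from the first. Values were log2 transformed with no pseudocount and fitted with limma 3.58.1 in R 4.3.3 (lmFit, eBayes) as 12 means of line and sex, with contrasts of line means within each sex, two-sided, called at an adjusted p (Benjamini-Hochberg) under 0.05. The factorial analysis that the methods ran on linear values was an alternative. The fit was tested on simulated data.

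Named genes were the 10 largest rises and falls without overlap, the 3 called genes of smallest p in each list (1 probe set a gene, that of highest mean Signal), the 5 called probe sets differing most between the lines of each group, the 5 smallest p between the sexes, the 10 genes with mutant tests, and tissue markers. *Cp16*, *Cp18* and other egg shell genes below the testing limit, *Vm26Aa*, *osk* and *clos* were named after their values were seen. The comparison, lists and rules were chosen with earlier results of these data known. Replicate numbers did not pair the samples, with correlations of replicate differences between -0.063 and 0.0355. Alternatives covered scaling, filter, offset, arrays in the fit, replicate and line blocks, thresholds, and each array or line left out.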

Additional observations from a re-analysis of the deposited data

Results flagged for a closer look

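For 15 genes named above, the difference between L and C females was set apart from that in males by the test of the difference itself (limma, adjusted p under 0.05). Given as the female difference minus the male one, it was more positive in females for *Obp99a* (2.68, adjusted p = 4.11e-05), *CG12470* (2.68, 1.37e-06), *Hsc70-2* (2.63, 0.0228), *Rpt3R* (2.34, 0.0185), *tkv* (1.80, 0.00593), *Prim1* (0.96, 0.0197), *spn-E* (0.72, 0.0442), *RfC3* (0.72, 0.0135) and *spz* (0.47, 0.0228). It was more negative for *Rsph4a* (-3.83, 0.00387), *MFS3* (-1.88, 0.0142), *CG14691* (-1.84, 0.0442), *dpr17* (-1.83, 0.000335), *CG3823* (-0.98, 0.000446) and *Hr38* (-0.63, 0.0461).

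In 10 groups of 4 arrays, 1 array lay far from the other 3 on the log2 scale, its gap to the nearest, as a share of the group's range, being over Dixon's critical value. Chance alone marks about 1 group in 20. Every named gene was looked at in both groups, the 102 named probe sets called among them. The 10 marked groups are therefore no more than chance alone would give. The C females had such an array for *Hsc70-2* (7, line 2), *spn-E* (545.5, line 1), *Ugt36D1* (1345, line 2) and *Acox57D-p* (562, line 1), each the lowest, and for *CG11893* (2836), *mbl* (382.8) and *Csp* (2486), each the highest and in line 1. The L females had one for *CG31041* (39, line 1, the lowest), *cpx* (3461, line 2, the highest) and *Acp95EF* (206.4, line 1, the highest).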

How the results depend on the processing

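The 2142 probe sets called in females kept their direction under the other scalings and the other offset, with no filter, with each block, with line means and in the fits of 12 or 8 female arrays. Direction was kept by 2139 without L line 1, 2128 without L line 2, 2127 without C line 1 and 2128 without C line 2. The number called stayed within 1.5 times of 2142 except as follows. It was 1415 with no filter, 775 at an adjusted p under 0.01, 763 when a 1.5-fold difference was also required, and 0 with line as a random block, with line means as samples and with line means blocked by line number (1895, 1188 and 1649 at an unadjusted p under 0.05). The methods' analysis of the linear Signal called 2863, of which 63.4% were higher in L. With the replicate number as a block 2025 were called, all named genes keeping their call. Leaving out 1 array gave 1133 to 1858 calls, and leaving out a line 2369 (L line 1), 503 (L line 2), 756 (C line 1) and 1785 (C line 2), in all 503 to 2369.

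The 215 calls of a difference between the sexes became 363 with log2(Signal + 50), 1116 on the linear Signal, 28 with no filter, 140 with the replicate block and 19 at an adjusted p under 0.01, 147 after quantile normalization and 170 after median centring, where 35.9% rather than 76.7% were more positive in females. They were 60 to 210 without 1 array and 13 (L line 2) to 86 (L line 1) without a line. In the fit of the 12 female arrays with a limit over the 8 arrays, chosen after seeing the data, 2270 probe sets were called, with 11 germline genes higher and 3 lower and 8 sarcomere genes lower.

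Of 102 named probe sets called, 23 lost the call without some 1 array, among them *Def*, *Dup99B*, *CG10317*, *Hex-A*, *Pgi*, *Hr38*, *shd*, *slif*, *tim*, *Rpn5*, *Prosbeta2R1*, *Obp56a*, *Cpr47Ef*, *TwdlT*, *Zasp66* and *ND-B14*. The difference of 9 reversed without 1 line, over the ranges -1.24 to 0.17 (*Obp56a*), -3.41 to 0.11 (*TkR99D*), -3.32 to 0.013 (*Acp36DE*), -2.81 to 0.60 (*Dup99B*), -0.71 to 5.92 (*CG12470*), -2.67 to 0.30 (*Cyp12d1-d*), -4.94 to 0.50 (*CG14691*), -0.002 to 4.82 (*CG30083*) and -4.51 to 0.11 (*CG14384*). The causes were not tested beyond the line left out. Signal near background limits the genes read under 75.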

Other observations

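Genes of chromosome 4, the smallest, were lower in L females more often than those of other chromosomes, a pattern noticed in the data and given as values with no test. Of 59 genes tested there, 19 fell (32.2%) and 2 rose (3.39%), with a median of -0.20. On the other chromosomes the share that fell was 7.74% (X), 8.77% (2L), 10.4% (2R), 9.88% (3L) and 9.68% (3R), and the medians were between -0.003 and 0.033. *CG11155*, a glutamate receptor gene, averaged 197 ± 32.8 in L females and 343 ± 26.4 in C females (SD, n = 4 arrays each; -0.81 ± 0.11, adjusted p = 0.0006 in limma), *Asator*, a kinase gene, 458 ± 78.9 in L females and 658 ± 76.9 in C females (-0.53 ± 0.08, 0.0014), and *Zip102B*, a zinc transporter gene, 412 ± 79.7 in L females and 627 ± 37.6 in C females (-0.62 ± 0.13, 0.0067). *unc-13*, needed for synaptic vesicle priming, averaged 1067 ± 123 in L females and 1289 ± 122 in C females (-0.28 ± 0.09, 0.0402). These 4 genes were chosen after their values were seen.

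The chromosome's median was -0.16 in L line 1 and -0.27 in L line 2, each against the mean of both C lines, and -0.10 in males of the L and C lines, where 3 of its genes were called lower. H females, set against the same C females, had a median of -0.12. Without L line 2 the share of its genes called lower was 5.08%, beside 2.98% of all genes, and without C line 1 6.78% beside 4.2%. Without L line 1 it was 23.7% beside 10.1%, and without C line 2 22% beside 7.39%.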
